A study of Mus musculus with 6 samples.

Results

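The 8 genes described here encode ketone body enzymes (Acat1, Bdh1, Bdh2, Oxct1), monocarboxylate transporters (Slc16a1, Slc16a6, Slc16a7) and the deacetylase SIRT3 (Sirt3). They were taken by symbol for their role, a rule that uses no measured value, although earlier results of these data were known. All 8 were found among the 45777 genes of the table and passed the filter that left 18636 genes for testing. Liver RNA was sequenced from 6 C57BL/6 mice at 8 weeks of age that had been fasted for 24 h, 3 with Pak4 flox/flox alleles alone (WT) and 3 with Alb-Cre; Pak4 flox/flox (liver-specific knockout, LKO). All 6 mice therefore carried the floxed Pak4 alleles, and the genotypes differed in the Cre transgene, which is driven by the albumin promoter and so removes Pak4, a serine/threonine kinase gene, mainly in hepatocytes. The study asked how PAK4 bears on ketogenesis, and the question for these genes is whether their transcripts differed between fasted LKO and WT livers.

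During a fast, hepatocytes oxidise fatty acids in mitochondria and turn part of the resulting acetyl-CoA into acetoacetate, which is reduced to β-hydroxybutyrate. Both acids leave the cell through monocarboxylate transporters and are burned in muscle, heart and brain, whereas hepatocytes have little of the enzyme that would let them burn ketone bodies themselves. Acat1 encodes the mitochondrial thiolase that condenses or splits acetoacetyl-CoA, Bdh1 the mitochondrial β-hydroxybutyrate dehydrogenase, and Bdh2 a cytosolic short-chain dehydrogenase to which β-hydroxybutyrate oxidation has been attributed. Oxct1 encodes the transferase that starts ketone body use. Slc16a1 (MCT1) and Slc16a7 (MCT2) carry lactate, pyruvate and ketone bodies with protons, Slc16a6 (MCT7) has been linked to the release of β-hydroxybutyrate from the liver, and SIRT3 is the main protein deacetylase of mitochondria.

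Counted reads per library ran from 45934632 to 55205564 among WT mice, compared with 53936281 to 59576437 among LKO mice, so depth did not separate the genotypes by much. The 10 most abundant genes took 16.2 to 17.3% of reads in WT and 30.6 to 36.3% in LKO mice. The 7SL RNA genes Rn7s1 and Rn7s2 together took 4.55 to 5.24% in WT and 11.2 to 15.8% in LKO mice. Levels between libraries were therefore scaled by TMM (trimmed mean of M values) and are given as CPM (read counts relative to the scaled library size); without it, the median gene was 0.90 lower in LKO mice on the log2 scale, against 0.04 lower with it. Pak4 itself was at 3.59, 3.21 and 4.1 CPM in WT mice 1 to 3 and at 1.93, 1.49 and 3.22 CPM in LKO mice 1 to 3, a log2 fold change of -0.71 (adjusted p = 0.10); the highest LKO mouse just exceeded the lowest WT mouse. In bulk liver, fewer cells of a type and less RNA per cell cannot be told apart. The summed CPM of 6 hepatocyte markers (Alb, Ttr, Apoa1, Apob, Cps1 and Tat) was 40445 to 44088 in WT and 104327 to 127616 in LKO mice, with 3 of the 6 called higher and 1, Ttr, called lower. Summed marker levels of red blood cells (192 to 324 against 879 to 1634 CPM) were also higher in all LKO mice, with TMM and with total counts, although Alas2 among them was called lower (-1.37). The sums of Kupffer cell (267 to 408 against 436 to 848 CPM), endothelial (230 to 273 against 392 to 424) and stellate cell markers (279 to 328 against 569 to 824) were higher in all LKO mice with TMM, but with total counts the genotypes overlapped in all 3, and the 2 highest endothelial sums were then those of WT mice. Among these, Col3a1 was called lower (-1.85) with TMM, and Adgre1, Csf1r and Col1a1 were at -0.12, -0.18 and -0.24. The cholangiocyte sum (32.9 to 50.1 against 13.4 to 29.9 CPM) was lower in all LKO mice on both scales, with Spp1 called lower (-1.09) and Krt19, Epcam and Sox9 at 1.00, 0.05 and 0.11 with TMM. Lymphocyte markers overlapped with TMM (3.28 to 5.44 against 2.21 to 4.61 CPM) and were lower in all LKO mice with total counts. Their part in the results was not tested.

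Mean CPM of Bdh2 and Slc16a6 fell 4.52-fold and 4.96-fold in LKO livers, and these 2 of the 8 genes passed the test. In the whole table, 40.1% of tested genes were called at an adjusted p under 0.05, 20.5% lower and 19.6% higher in LKO mice, so a count of 2 of 8 is no larger than the share among all genes. The median log2 fold change of the 8 genes was -0.03, beside -0.04 over all genes tested. On the TMM scale the 8 spread to both sides of the median gene: the dehydrogenase genes Bdh1 and Bdh2 and the transporter gene Slc16a6 had log2 fold changes well below it, and Acat1, Slc16a7 and Sirt3 had values above it. In CPM, the genotypes did not overlap in 4 of the 8 (Bdh1, Bdh2, Slc16a6 and Slc16a7), against 54.0% of all genes tested.

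**Figure D1:**
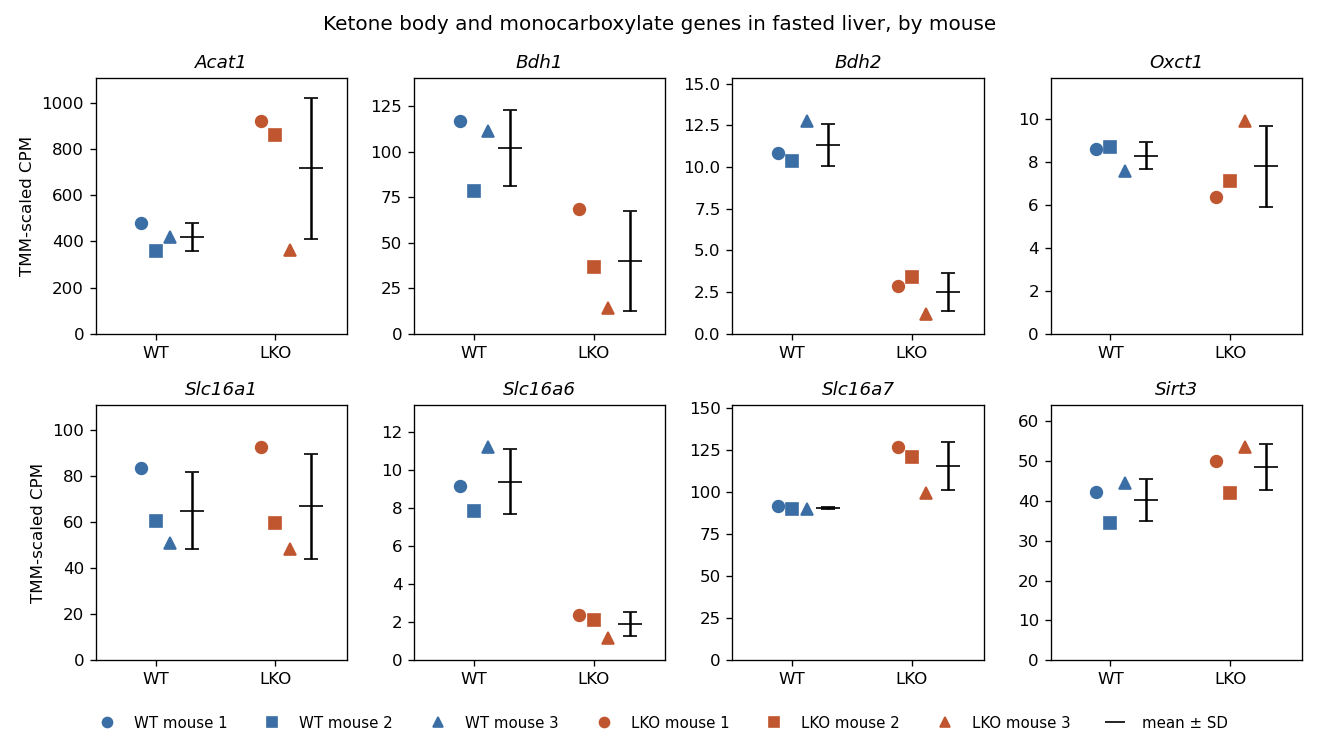
TMM-scaled CPM of each of the 8 genes in each mouse (vertical axes from 0, one panel per gene), with the mean and SD of 3 mice per genotype as a bar and whiskers. Bdh2 and Slc16a6 show clearly separate genotypes, Bdh1 is lower in all 3 LKO mice but at very different levels, and LKO mouse 3 (triangle) has the lowest LKO value of Acat1, Bdh1, Bdh2, Slc16a1, Slc16a6 and Slc16a7.

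Acat1 (chr9:53580522-53610350, minus strand, GRCm38.p6) had the highest TPM, a level per transcript length, of the 8 in every mouse. It was at 481, 360 and 420 CPM in WT mice and at 921, 860 and 365 CPM in LKO mice. LKO mice 1 and 2 thus lay far above the WT range, and LKO mouse 3 lay inside it. The mean was 420 ± 60.1 (SD, n = 3) in WT and 715 ± 305 in LKO mice, and the log2 fold change of 0.77 ± 0.33 (SE) had an adjusted p of 0.099, with a 95% interval of 0.01 to 1.53. Without LKO mouse 3 the log2 fold change was 1.08 and the adjusted p 0.0045, and DESeq2 with all mice gave 0.80 with an adjusted p of 0.037. With total counts as the scale the value was -0.10 (adjusted p = 0.80), so the position of Acat1 above zero rests on TMM or a like scaling. Its difference from the median gene was 0.81 with TMM, 0.80 with total counts, -0.09 on the log2(TPM + 1) scale and 0.46 on the log2(TPM + 0.1) scale.

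Bdh1 (chr16:31422297-31458901, plus strand) encodes the enzyme of the last step of β-hydroxybutyrate synthesis. In WT mice it was at 117, 78.3 and 112 CPM, and in LKO mice at 68.9, 36.8 and 14.2 CPM. Every LKO mouse was below every WT mouse, but the LKO mice spanned a 4.86-fold range among themselves, with a coefficient of variation of 68.8% against 20.5% in WT mice. The mean was 2.56-fold lower in LKO mice (102 ± 21.0 against 40.0 ± 27.5 CPM), and the log2 fold change of -1.36 ± 0.48 (SE) had an adjusted p of 0.051, just short of the threshold. It was called lower in 12 of 19 alternative fits, among them edgeR's exact test (adjusted p = 0.015), DESeq2 (0.0072), and the fits without LKO mouse 1 (-2.01, adjusted p = 0.0081) and without LKO mouse 3 (-0.95, adjusted p = 0.038), and its value was below zero in all 19.

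Bdh2 (chr3:135281221-135304426, plus strand) was at 10.8, 10.4 and 12.8 CPM in WT mice and at 2.89, 3.41 and 1.21 CPM in LKO mice. The lowest WT mouse was about 3 times the highest LKO mouse. In reads, this was 678 to 844 per WT library against 56 to 127 per LKO library, enough for counting error to be small beside the difference. The log2 fold change was -2.18 ± 0.35 (SE, adjusted p = 0.0018), with a 95% interval of -2.98 to -1.39, and 2.88% of tested genes had a lower one. It kept its direction and its call in all 19 alternative fits, with values of -2.47 to -1.85 when single mice were left out.

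The bases just upstream of the annotated starts are shown for both dehydrogenase genes, whose CPM was lower in every LKO mouse, and for Slc16a1, whose CPM ranges in the genotypes overlapped. They are the 250 bases before each start in the RefSeq annotation of GRCm38.p6, 5′ to 3′ on the gene's strand, with CpG dinucleotides in capitals. The windows are chr3:135280971-135281220 for Bdh2, chr16:31422047-31422296 for the upstream start of Bdh1, and chr3:104638414-104638663 for Slc16a1, all on the plus strand.
Bdh2: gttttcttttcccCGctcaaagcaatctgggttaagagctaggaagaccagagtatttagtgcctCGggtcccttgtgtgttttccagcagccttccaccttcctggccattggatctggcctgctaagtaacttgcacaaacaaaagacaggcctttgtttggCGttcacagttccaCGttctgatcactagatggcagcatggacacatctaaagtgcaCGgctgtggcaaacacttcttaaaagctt
Bdh1: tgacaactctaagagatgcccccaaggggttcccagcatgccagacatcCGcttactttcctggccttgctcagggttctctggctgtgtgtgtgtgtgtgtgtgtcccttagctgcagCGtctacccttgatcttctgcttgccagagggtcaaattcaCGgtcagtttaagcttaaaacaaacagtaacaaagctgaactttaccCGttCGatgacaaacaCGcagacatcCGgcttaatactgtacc
Slc16a1: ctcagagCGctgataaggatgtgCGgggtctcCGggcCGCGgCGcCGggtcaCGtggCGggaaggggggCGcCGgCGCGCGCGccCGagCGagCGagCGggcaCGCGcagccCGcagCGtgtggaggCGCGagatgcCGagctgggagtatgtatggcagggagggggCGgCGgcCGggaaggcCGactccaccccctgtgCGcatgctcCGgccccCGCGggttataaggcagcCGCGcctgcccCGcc
Bdh2 had 5 CpG dinucleotides and 48.0% G + C, Bdh1 had 7 and 49.6%, and Slc16a1 had 37 and 76.4%. The second annotated start of Bdh1 had 9 CpG dinucleotides, Oxct1 had 6, and the 2 windows of Sirt3 had 21 and 18. The median of 32851 RefSeq windows was 6, and 5.94% held 30 or more. In windows of 300 bases that also took in the first 50 bases after the start, searched on both strands, the nuclear receptor half-site AGGTCA was found in none of the 7 windows of these 5 genes, and in 16.3% of all windows. The letters CCAAT were present in the Bdh2 window and in 1 of the Sirt3 windows (37.4% of all windows), the letters CACGTG in the Slc16a1 window (7.15%), and the letters GGGCGG in windows of Slc16a1, Sirt3 and, at its second start, Bdh1 (35.7%). These matches are descriptions of the sequence, and no binding was measured here.

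Oxct1 (chr15:4026428-4155344, plus strand), the gene of ketone body use, was low in both genotypes. It was at 8.62, 8.71 and 7.56 CPM in WT mice and at 6.36, 7.11 and 9.90 CPM in LKO mice. The genotypes overlapped, with LKO mouse 3 the highest of all 6 and LKO mouse 1 the lowest. The log2 fold change was -0.09 (95% interval -0.56 to 0.38, adjusted p = 0.75) on the TMM scale and turned to 0.028 with a correction for gene length and to 0.037 without LKO mouse 1, whereas with total counts it was -0.95 (adjusted p = 0.0098). Of 6 markers of muscle and fat, tissues that use ketone bodies, Acta1 and Plin1 were at 0 reads in all 6 libraries. Ckm, Myh4 and Adipoq were at 0 to 4 reads. Plin4, the only marker of the 6 that passed the filter, was at 17.7 to 22.2 CPM in WT and 6.38 to 14.2 in LKO mice. It had 1656, 1157 and 1243 reads in WT and 625, 403 and 295 in LKO mice 1 to 3, and was called lower (-0.87, adjusted p = 0.034). Whether other tissue added to the Oxct1 reads was not tested.

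Among the transporters, Slc16a6 (chr11:109450855-109473598, minus strand) stood apart. It was at 9.13, 7.81 and 11.2 CPM in WT mice and at 2.39, 2.09 and 1.19 CPM in LKO mice. All 3 LKO mice were far below the WT mice, from 511 to 739 reads per WT library to 55 to 105 per LKO library. The log2 fold change was -2.31 ± 0.29 (SE, adjusted p = 6.7e-04), with a 95% interval of -2.97 to -1.65, and 2.42% of tested genes had a lower one. Like Bdh2, it kept its direction and its call in all 19 alternative fits, with values of -2.53 to -2.06 when single mice were left out. Its annotated gene span overlaps by 1959 bases that of Amz2, which lies on the opposite strand and had a log2 fold change of -0.56 (adjusted p = 0.051). The span also overlaps by 225 bases that of Arsg (0.19, adjusted p = 0.55). Spans include introns, and the overlap of exons was not computed. Whether reads were assigned by strand is not given in the sources used here, so the separation of Slc16a6 from these neighbours is uncertain.

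The better known carriers of ketone bodies and lactate, Slc16a1 and Slc16a7, were not called on the TMM scale. Slc16a1 (chr3:104638664-104658462, plus strand) was at 83.7, 60.7 and 50.8 CPM in WT mice and at 92.5, 59.5 and 48.5 CPM in LKO mice. The ranges covered each other almost entirely, and the log2 fold change of 0.04 (95% interval -0.58 to 0.66, adjusted p = 0.92) became -0.27 without LKO mouse 1 and -0.81 with total counts (adjusted p = 0.052). Given the width of the interval, equal levels were not shown.

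Slc16a7 (chr10:125219270-125389586, minus strand) was at 91.4, 90.1 and 89.9 CPM in WT mice and at 127, 121 and 99.4 CPM in LKO mice. The WT mice were almost identical, with a coefficient of variation of 0.90%, and every LKO mouse was above them. The log2 fold change was 0.35 ± 0.15 (SE, adjusted p = 0.087) with TMM, 0.45 (adjusted p = 0.029) without LKO mouse 3, and -0.51 (adjusted p = 0.029) with total counts, so both its direction and its call depend on the scaling. The gene length correction gave 0.57 and a call (adjusted p = 0.027). Relative to the median gene it was 0.39 above with TMM and with total counts, at -0.32 on the log2(TPM + 1) scale and 0.14 above on the log2(TPM + 0.1) scale.

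The ratio of Slc16a6 to the other 2 transporters within a mouse needs no scaling between libraries. In TPM, the deposited level corrected for transcript length and library size, the value of Slc16a6 divided by that of Slc16a1 gave 0.113, 0.131 and 0.227 for the WT mice, whereas the LKO mice gave 0.0245, 0.0341 and 0.0232. Over Slc16a7 it was 0.212 to 0.315 in WT and 0.0266 to 0.0426 in LKO mice. In neither ratio did the genotypes overlap (2-sided exact permutation p = 0.1 each, the smallest that 3 against 3 can give). In read counts, 16.9% of all genes had a ratio to Slc16a1, and 38.4% a ratio to Slc16a7, that was lower in every LKO mouse. The ratio of Slc16a1 to Slc16a7, 1.39 to 2.03 in WT mice, overlapped with that of LKO mice, whose highest value was 1.74 (exact permutation p = 0.3).

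Sirt3 (chr7:140863663-140882309, minus strand) was at 42.1, 34.3 and 44.4 CPM in WT mice and at 49.9, 42.0 and 53.3 CPM in LKO mice. The genotypes overlapped, and the log2 fold change was 0.27 (95% interval -0.10 to 0.63, adjusted p = 0.22) with TMM but -0.58 (adjusted p = 0.033) with total counts. Its annotated gene span, introns included, overlaps that of Ric8a by 707 bases and that of Psmd13 by 342 bases, both on the opposite strand. Psmd13 had a log2 fold change of 1.21 (adjusted p = 0.0029) on the TMM scale.

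**Figure D2:**
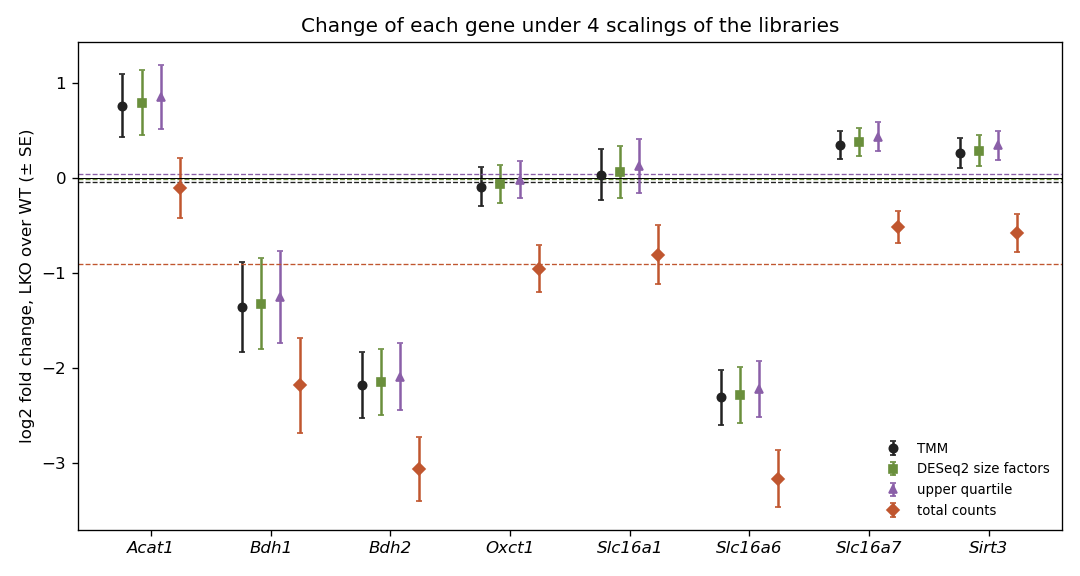
Log2 fold change (LKO over WT) with its standard error for each of the 8 genes under 4 ways of scaling the libraries, with the median of all genes under each as a dashed line in the same colour. With total counts every gene shifts down by about the shift of the median gene. Acat1, Slc16a1, Slc16a7 and Sirt3 thus lie below zero there and above it under the other scalings. Bdh1, Bdh2 and Slc16a6 lie well below the median under all 4. Oxct1 lies just below the median under all 4, with a difference of -0.051 with TMM and -0.054 with total counts.

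The order of levels per length was read from the deposited TPM. In WT mice the mean TPM ran from Acat1 (244 ± 29.9, SD, n = 3) through Bdh1 (64.5 ± 10.5), Sirt3 (55.6 ± 4.11), Slc16a1 (29.0 ± 7.88), Bdh2 (19.1 ± 1.16), Slc16a7 (17.1 ± 1.61) and Oxct1 (4.70 ± 0.63) to Slc16a6 (4.25 ± 0.52). The neighbours Bdh1 and Sirt3, Bdh2 and Slc16a7, and Oxct1 and Slc16a6 overlapped in their ranges. In LKO mice the order was Acat1 (141 ± 58.7), Sirt3 (23.6 ± 6.47), Slc16a1 (10.3 ± 4.32), Bdh1 (8.75 ± 6.68), Slc16a7 (7.44 ± 1.29), Oxct1 (1.54 ± 0.55), Bdh2 (1.41 ± 0.54) and Slc16a6 (0.273 ± 0.093). Bdh1 held rank 2 of the 8 in each WT mouse and ranks 3, 4 and 5 in LKO mice 1, 2 and 3, and Bdh2 passed from well above Oxct1 to about its level. For all 8 genes the highest LKO mouse was below the lowest WT mouse in TPM (exact permutation p = 0.1 each, also after adjustment over the 8), as were 74.9% of all genes tested. The larger share of the 7SL RNA genes in LKO libraries, given above, moves with that drop, and its part in it was not tested.

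Each gene was also set against Acat1 within its own library, a measure that does not depend on how libraries are scaled. Bdh2 had log2 ratios to Acat1 of -5.47, -5.12 and -5.04 in the WT livers, compared with -8.32, -7.98 and -8.24 in the LKO livers. For Slc16a6 the WT livers had -5.72, -5.53 and -5.23, and the LKO livers -8.59, -8.68 and -8.26. For Bdh1 the log2 ratios were -2.04, -2.20 and -1.91 without Cre, as against -3.74, -4.55 and -4.69 with it. In these 3 genes the genotypes did not overlap, and the mean ratio was 7.82-fold, 8.11-fold and 4.84-fold lower in LKO mice (exact permutation p = 0.1 each, adjusted p = 0.233 over 7 ratios, which 3 against 3 cannot bring under 0.05). These folds also take in Acat1 itself, whose log2 fold change was 0.77 with TMM (not called) and -0.10 with total counts. Over all genes, 29.8% had a ratio to Acat1 that was lower in every LKO mouse. For Oxct1, Slc16a1, Slc16a7 and Sirt3 the ratios overlapped (exact permutation p = 0.2 to 0.4). In LKO mice 1 and 2 all 4 of these ratios were below the WT range, and in LKO mouse 3, in which Acat1 was lowest, none of them was.

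**Figure D3:**
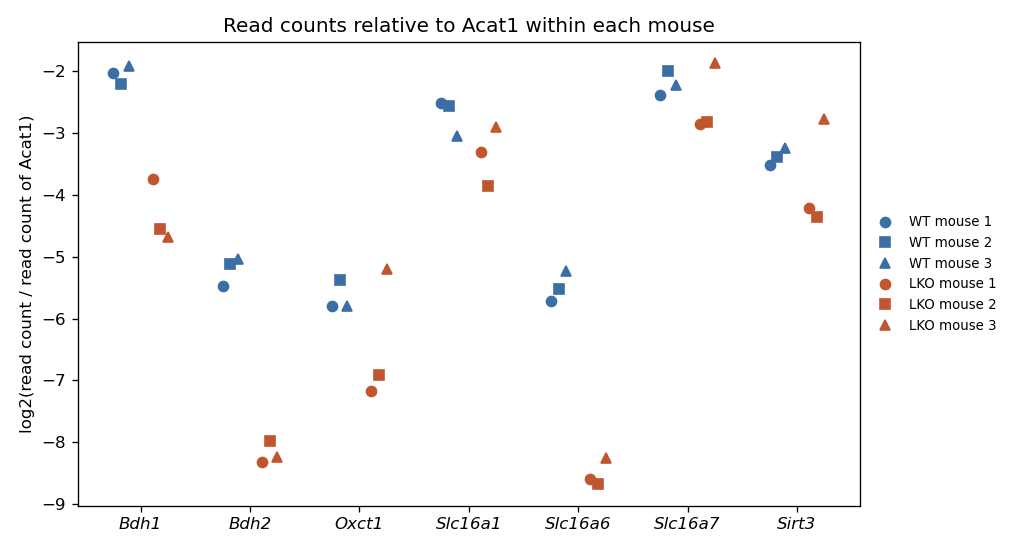
Log2 ratio of the read count of each gene to that of Acat1 in the same library (vertical axis), by mouse. Bdh1, Bdh2 and Slc16a6 are separated by genotype, with mean differences (LKO minus WT) of -2.27, -2.97 and -3.02, and for the other 4 genes LKO mouse 3 falls back among or above the WT mice.

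LKO mice differed from one another in several of these genes. LKO mouse 3 had the lowest CPM of the 3 LKO mice for Acat1, Bdh1, Bdh2, Slc16a1, Slc16a6 and Slc16a7, and the highest for Oxct1 and Sirt3. It also had the highest Pak4 of the 3. Without it 5 of the 8 genes were called on the TMM scale, Bdh1, Bdh2 and Slc16a6 lower and Acat1 and Slc16a7 higher, beside 37.8% of all genes called in that fit.

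Other genes of ketone and monocarboxylate metabolism were taken from lists of 35 genes, of which 28 passed the filter. On the TMM scale 8 were called higher, 9 lower and 11 not, with a median log2 fold change of -0.43; the share called, 17 of 28, stands beside 40.1% of all genes. The split was 1 higher and 17 lower with total counts and 1 higher and 23 lower on the log2(TPM + 1) scale. The 7 that did not pass were Oxct2a, Oxct2b, Hmgcll1, Slc16a8, Slc16a14, Slc5a8 and Slc5a12. The number called dropped from 17 to 9, 9 and 8 without WT mouse 1, 2 and 3, and was 12 or 13 without any one LKO mouse.

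Of the 3 genes tested that act on ketone bodies or acetoacetyl-CoA in the cytosol, 2 were called lower and none higher. Among all genes, 20.5% were called lower. Aacs, which activates acetoacetate for lipid synthesis, fell from 110.5 ± 34.4 to 5.09 ± 2.24 CPM (SD, n = 3), a log2 fold change of -4.44 ± 0.40 (SE, adjusted p = 2.9e-04). Acat2, the cytosolic thiolase of sterol synthesis, fell from 68.0 ± 12.6 to 21.9 ± 9.59 CPM (-1.63, adjusted p = 0.0043). Both calls held in all 6 fits that left out 1 mouse. Acat3, a near copy of Acat2, was at 94.5 ± 6.05 and 62.6 ± 32.0 CPM (-0.59, adjusted p = 0.21). The counting could split reads between the last 2, so their separate values are uncertain.

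Of 8 other Slc16 genes tested, 3 were called higher, 1 lower and 4 not, beside 40.1% of all genes called. Slc16a10, a carrier of aromatic amino acids, had the largest rise among those called, from 43.8 ± 2.18 to 118 ± 56.0 CPM (1.43, adjusted p = 0.0070) with TMM, although it was -0.19 on the log2(TPM + 1) scale. Slc16a5 (0.92, adjusted p = 0.038) and Slc16a9 (0.95, adjusted p = 0.045) were also called higher with TMM, were below zero on the TPM scale (-0.52 and -0.36), and lost the call without any one of 5 of the 6 mice (adjusted p up to 0.13 and 0.14); the call was kept without LKO mouse 2 for the former and without LKO mouse 1 for the latter. Slc16a13 was called lower at under 1 CPM (-1.64, adjusted p = 0.033), a call kept when LKO mouse 1 was left out and lost without any other mouse (adjusted p of 0.055 to 0.12). Slc16a12 was at 97.5 ± 28.1 and 58.5 ± 17.3 CPM (-0.74, adjusted p = 0.060). Bsg, the membrane partner that Slc16a1 needs at the cell surface, fell from 167 ± 24.5 to 105 ± 21.0 CPM (-0.67, adjusted p = 0.025), and its call was lost without WT mouse 1 (0.090), WT mouse 3 (0.057) or LKO mouse 1 (0.053).

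In lactate and pyruvate handling, 3 of 5 genes were called higher with TMM and none lower, beside 19.6% of all genes called higher. Mpc1, a subunit of the mitochondrial pyruvate carrier, rose from 109 ± 16.5 to 510 ± 230 CPM (SD, n = 3), a log2 fold change of 2.22 ± 0.33 (SE, adjusted p = 0.0014). It was higher under every scaling tried, at 1.32 with total counts (adjusted p = 0.0030) and 0.66 on the log2(TPM + 1) scale. Mpc2, its partner subunit, rose from 70.7 ± 10.4 to 135 ± 6.41 CPM with TMM (0.93, adjusted p = 0.0023) and was at 0.07 with total counts and -0.60 on the TPM scale, and with the gene length correction it was at 0.40 and not called (adjusted p = 0.069). Ldha, the main lactate dehydrogenase subunit gene, rose from 264 ± 7.32 to 477 ± 133 CPM with TMM (0.85, adjusted p = 0.018) and was at -0.03 with total counts and -0.73 on the TPM scale, and its adjusted p was 0.052 to 0.068 without WT mouse 1, 2 or 3 or LKO mouse 1 or 2. Ldhd, for D-lactate, was at 78.8 ± 14.5 and 52.5 ± 15.4 CPM (-0.59, adjusted p = 0.074).

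The other sirtuins are relatives of Sirt3 that also remove acyl groups from proteins. Of 6 tested, 4 were called lower, 1 higher and 1 not, and in CPM the genotypes did not overlap in any of the 6, beside 20.5% of all genes called lower and 54.0% without overlap. The mitochondrial members Sirt5 and Sirt4 fell by 0.99 (adjusted p = 0.0068) and 0.76 (adjusted p = 0.038) on the log2 scale, and the nuclear Sirt6 fell by 1.43 (adjusted p = 0.013). Their levels were low, with mean CPM in WT and LKO mice of 9.53 and 4.81 for Sirt5 and 3.24 and 1.91 for Sirt4. Sirt6 was lowest, at 1.28 and 0.47 CPM. Sirt5 kept its call whichever mouse was left out, Sirt6 lost it without WT mouse 2 (0.052), and Sirt4 kept it without WT mouse 2 alone and otherwise had an adjusted p of 0.064 to 0.13, and of 0.058 with upper-quartile scaling. Sirt2, a mainly cytosolic member, was called lower (-0.48, adjusted p = 0.043) and lost the call without any one of the 6 mice (0.061 to 0.14) and with the size factors of DESeq2 (0.056). Sirt1, a nuclear deacetylase, was called higher with TMM (0.74, adjusted p = 0.027), from 12.9 ± 0.24 to 21.6 ± 6.78 CPM, but was at -0.12 with total counts and -0.69 on the TPM scale and lost the call without WT mouse 1, 2 or 3 (0.079 to 0.083). Sirt7 was at 19.8 ± 1.13 and 13.5 ± 3.95 CPM (-0.56, adjusted p = 0.066).

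Of 4 other thiolases of fatty acid oxidation, 1 was called lower, 1 higher and 2 not, beside 40.1% of all genes called. Acaa1b, a peroxisomal thiolase, fell from 764 ± 323 to 194 ± 90.9 CPM (-1.98, adjusted p = 0.0056), a call that held whichever mouse was left out. Its close relative Acaa1a was at 113 ± 33.7 and 87.0 ± 20.5 CPM (-0.37, adjusted p = 0.28). Hadhb, a subunit of the mitochondrial trifunctional protein, was called higher with TMM, from 230 ± 45.9 to 369 ± 85.9 CPM (0.68, adjusted p = 0.045), was at -0.20 with total counts and -0.70 on the TPM scale, and lost the call without WT mouse 2 or 3 or LKO mouse 1 or 2 (0.10 to 0.16). Acaa2, the mitochondrial thiolase, was at 638 ± 85.3 and 688 ± 226 CPM (0.11 with TMM and -0.77 with total counts, adjusted p = 0.77 and 0.026).

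**Figure D4:**
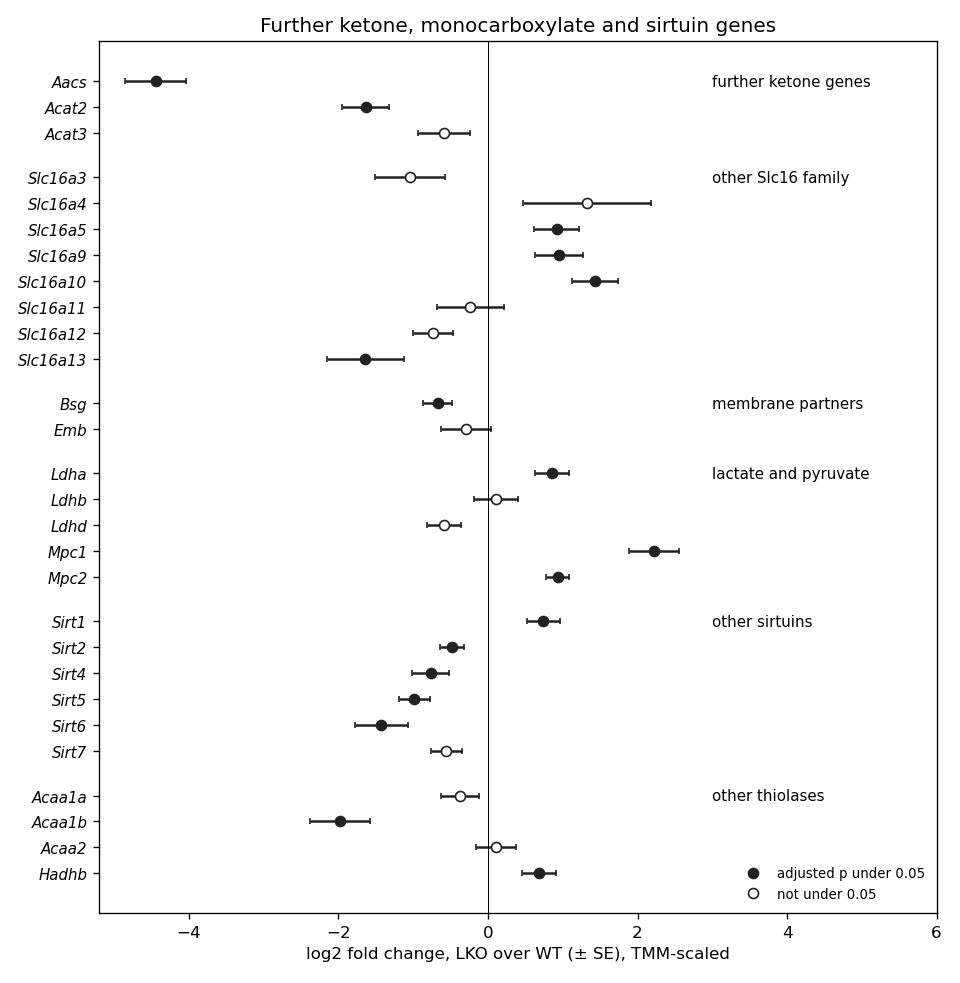
Log2 fold change (LKO over WT) with its standard error on the TMM scale for the 28 further genes tested, by list, with filled points for an adjusted p under 0.05. Aacs lies farthest to the left at -4.44 and Mpc1 farthest to the right at 2.22, and 5 of the 6 other sirtuins lie left of zero.

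For each of the 8 genes, the protein-coding gene at 10 CPM or more with the most similar profile over the 6 libraries was looked up, by Pearson's r of log2(CPM + 1). The 6 points share the genotype contrast and the scaling, so these values are descriptions. The most similar genes were Mbl2 for Slc16a6 (r = 0.999), Dtx3l for Bdh2 (0.996), Pbld2 for Bdh1 (0.995), Antxr2 for Acat1 (0.993) and Agmo for Slc16a7 (0.993). For the others they were Slf2 for Oxct1 (0.996), C130074G19Rik for Sirt3 (0.982) and Cldn1 for Slc16a1 (0.974). The number of genes with r over 0.95 was 603 for Slc16a6 and 435 for Bdh2, 106 for Bdh1, 103 for Slc16a7, and between 1 and 21 for Acat1, Oxct1, Sirt3 and Slc16a1. A gene whose CPM separated the genotypes, as that of 54.0% of all genes tested did, shares this contrast with many others. These numbers are therefore no separate result about the 8 genes.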

How the data were processed

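RNA was sequenced from the livers of 3 WT and 3 LKO mice, and groups and replicate numbers were taken from the sample titles. The authors deposited a table with, for each gene and library, the read count, FPKM and TPM, made with StringTie 2.1.3b after HISAT2 2.1.0 and Bowtie2 2.3.4.1 alignment to mm10 (versions from the submitters' processing notes). The labels name a stranded mRNA kit and the study's methods an rRNA-depleting total RNA kit, and this difference was not settled. The deposited counts were the basis of all tests, and the deposited FPKM and TPM of ratios and levels per length.

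Genes with more than 1 zero count among 6 libraries were left out, following the study's methods. Counts were scaled by TMM and tested in edgeR 4.0.16 (R 4.3.3) by its quasi-likelihood F test, 2-sided, with Benjamini-Hochberg adjustment over all 18636 genes and a threshold of 0.05. Standard errors of log2 fold changes were derived from that test, as the absolute log2 fold change divided by the square root of F. Intervals are the log2 fold change plus or minus the t quantile times this standard error, with no adjustment over genes. Single values were compared by exact permutation tests (SciPy 1.17.1). Alternatives were other scalings, edgeR's exact test, DESeq2 1.42.0, limma 3.58.1 on log2(TPM + 1) and log2(TPM + 0.1), other filters, a correction for gene length, a replicate block, and leaving out each mouse. On simulated counts for this comparison (18468 genes), 196 of 200 genes changed by 2 on the log2 scale were recovered, with 9 false calls. Only these 200 genes were changed there, whereas 40.1% of genes were called in the measured data. The simulation was therefore no test of the scaling between libraries under so broad a difference.

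The 8 genes and the lists of further genes were chosen with earlier results of these data known; the lists do not hold every enzyme of ketogenesis, and some of their genes are not reported here. From the lists, genes were named where called or at a mean of 10 CPM or more; those without a value were named as not passing the filter. No 2 libraries agreed within sampling noise. Nothing in the labels states separate litters or batches. P-values of the fit set the genotype difference against the spread between these mice, which edgeR estimates partly from all genes. The exact permutation p-values set it among all relabelings of these mice. The paper describes its flox/flox controls as littermates, but which mice shared a litter is not given. Coordinates and upstream sequences are from RefSeq (GRCm38.p6), which had windows for 5 of the 8 genes; overlaps are from GENCODE M21.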

Additional observations from a re-analysis of the deposited data

How the results depend on the processing

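The calls of Bdh2 and Slc16a6 and the below-zero value of Bdh1 held in all 19 alternative fits of each gene, and the within-mouse ratios to Acat1 kept their direction with FPKM and with each mouse left out. Of the 8 genes, 6 were called with total counts, 4 with DESeq2, 8 with limma at either TPM pseudocount, 5 at a threshold of 0.1, and 2 to 5 with 1 mouse left out, the 5 without LKO mouse 3. Further genes called numbered 8 to 13 with 1 mouse left out, beside 17. Over all genes, limma called 13775 with log2(TPM + 1) and 14002 with log2(TPM + 0.1), beside 7476; the calls split into 3661 higher and 3815 lower with TMM, 1167 and 9575 with total counts, 3984 and 3298 with upper-quartile scaling, and 453 and 13322 with log2(TPM + 1), where the median gene was at -0.79 (-1.34 with a pseudocount of 0.1). With total counts, log2(TPM + 1) and log2(TPM + 0.1) in turn, the log2 fold change turned to -0.10, -0.88 and -0.88 for Acat1, -0.81, -1.43 and -1.52 for Slc16a1, -0.51, -1.11 and -1.20 for Slc16a7, and -0.58, -1.24 and -1.27 for Sirt3. Oxct1 turned to 0.028 with the gene length correction and 0.0091 with the replicate block added to it, and ranged from -0.30 to 0.037 with 1 mouse left out; Slc16a1 ranged from -0.27 to 0.27. The cause of these turns was not tested. Samples with the same replicate number did not visibly deviate together (r = 0.11, -0.01 and -0.09). Other pairs of a WT and an LKO mouse had r of -0.14 to 0.13. With 3 mice a genotype, these values show no pairing by number but cannot exclude it. With a replicate block 6431 genes, 3 of the 8 and 12 of the further genes were called, the third of the 8 being Bdh1 at -1.58 (adjusted p = 0.030). With 3 mice a genotype, 95% intervals reaching 0.33 to 1.09 on either side of the log2 fold changes limit what can be said of the genes not called.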
